A study of Homo sapiens with 4 samples.

Results

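The insulin-like growth factor (IGF) family was examined in H1, an established line of human embryonic stem cells (hESCs), at day 8 of hematopoietic differentiation. The family was taken as 10 genes named by symbol: the ligands IGF1 and IGF2, the receptor IGF1R and the binding proteins IGFBP1 to IGFBP7. Each symbol had 1 row among the 58365 rows of the expression table. Of these 10 genes, 8 had a mean of at least 1 FPKM (fragments per kilobase, corrected for sequencing depth) in 1 group or both and were tested. IGF1 and IGFBP1 lay below that level and are given as values.

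Both groups of cultures received activin A and BMP4 for 2 days and then VEGF and bFGF for 3 days. For the last 3 days VEGF and bFGF were continued, and the SB group also received SB431542, an inhibitor of the type I receptors of the TGFβ and activin branch. The other group is labelled DMSO, which is the solvent control. Each group had 2 libraries, numbered 1 and 2. All came from 1 cell line without a genetic change, and the labels do not say whether the libraries of a group came from separate cultures, so p-values measure the spread between these libraries only. The study describes collecting CD31+ cells for sequencing, a step the labels do not mention. The comparison of SB with DMSO asked which genes differed when TGFβ signalling was blocked while endothelial cells give rise to blood cells.

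IGF1 and IGF2 are secreted peptides that act through the receptor tyrosine kinase IGF1R. The binding proteins are secreted as well: they hold the ligands outside the cell, lengthen their lifetime and limit or deliver them to the receptor, and proteases that cut the binding proteins release the ligand. IGFBP6 is known for its preference for IGF2. IGFBP7 binds IGFs weakly and is best known as a protein of the vascular matrix. IGF2 is the ligand typical of embryonic tissue, whereas IGF1 is the main ligand after birth.

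The binding proteins share a cysteine-rich N-terminal domain. The following coding stretches are shown because they separate the 5 binding proteins with the full family signature from IGFBP6 and IGFBP7. They were read 5′ to 3′ on the coding strand from the GENCODE 29 transcripts, each covers 8 codons, and capitals mark the cysteine codons (TGC or TGT).
IGFBP1: ggcTGCggcTGTTGCccgatgTGC
IGFBP2: ggcTGCggcTGCTGCtcggtgTGC
IGFBP3: ggcTGCggcTGCTGCctgacgTGC
IGFBP4: ggcTGCggcTGTTGCgccactTGC
IGFBP5: ggcTGCggcTGCTGCatgaccTGC
IGFBP6: ggcTGCgcggaagctgagggcTGT
IGFBP7: gcgTGCggcTGCTGCcctatgTGC

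On GRCh38 these coding-exon stretches lie at chr7:45888818-45888841 (IGFBP1, plus strand), chr2:216633770-216633793 (IGFBP2, plus), chr7:45920922-45920945 (IGFBP3, minus), chr17:40443889-40443912 (IGFBP4, plus), chr2:216694599-216694622 (IGFBP5, minus), chr12:53097883-53097906 (IGFBP6, plus) and chr4:57110163-57110186 (IGFBP7, minus). The signature of a glycine codon followed by cysteine codons at positions 2, 4, 5 and 8 occurred once in each of IGFBP1 to IGFBP5. IGFBP7 matched it from the second codon on but not at the first. IGFBP6 held only the outer pair of cysteine codons of the stretch, and its reading frame had 16 cysteine codons in 240 codons, the fewest of the 7. The other 6 binding proteins had 18 to 21. These are properties of the reference transcripts, read without expression values, but the stretch was shown with those values known. For IGFBP6 and IGFBP7 it was placed by a relaxed form of the signature.

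The binding proteins were by far the most abundant part of the family, and IGFBP4 and IGFBP2 made up nearly all of it. IGFBP4, the highest member by its mean in either group, was at 724.3 and 661.1 FPKM with DMSO and at 587.2 and 584.7 FPKM with SB. IGFBP2 was at 680.9 and 412.9 FPKM with DMSO and at 611.3 and 420.0 FPKM with SB. The values of these 2 genes overlapped within each group, so their order could not be set. Both stood among the 161 highest rows of every library.

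IGF2 came next, below IGFBP2 in every library, with ranks from 200 to 272. At a distance followed, in DMSO libraries, IGFBP7 (28.0 ± 6.4 FPKM, SD, n = 2), IGF1R (12.7 ± 2.56), IGFBP3 (9.03 ± 0.0995), IGFBP5 (6.59 ± 0.334) and IGFBP6 (6.29 ± 0.567). IGFBP5 and IGFBP6 overlapped there, while the other neighbours in this order did not. In SB libraries the order was IGF1R (12.2 ± 1.42 FPKM), IGFBP3 (9.42 ± 0.0306), IGFBP5 (7.98 ± 0.225), IGFBP7 (6.86 ± 0.847) and IGFBP6 (1.41 ± 0.0409), with no overlap between neighbours. IGFBP7 thus stood above IGF1R in both DMSO libraries and below IGFBP5 in both SB libraries.

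**Figure D1:**
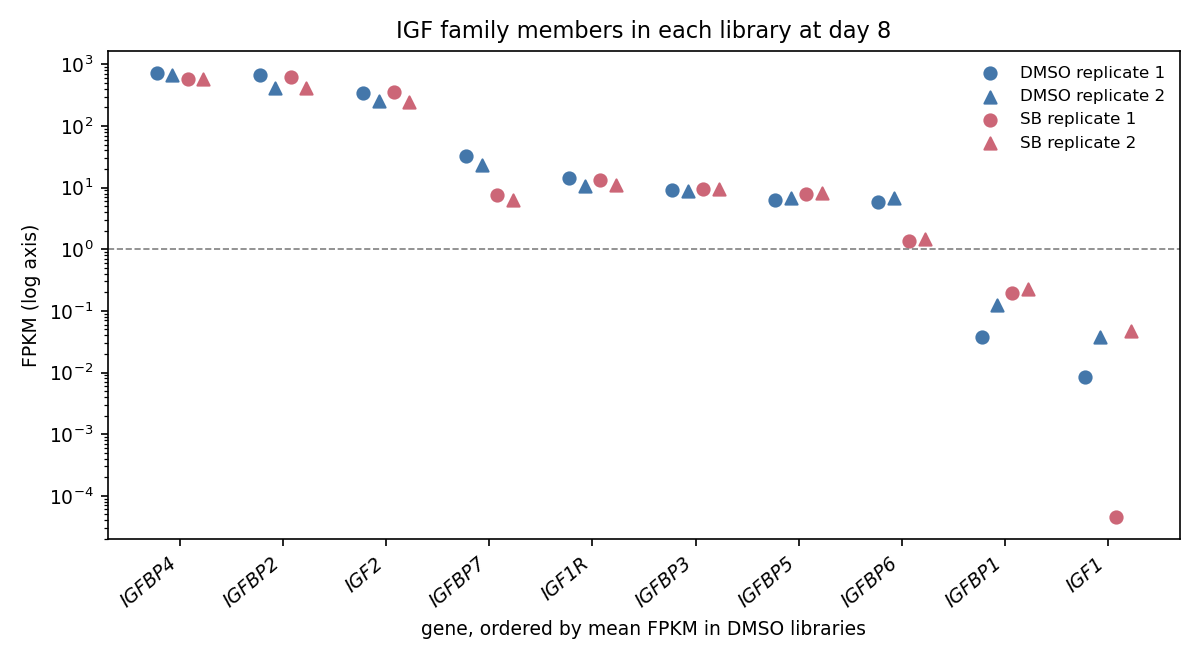
FPKM of the 10 family members on a log axis, 1 point per library (blue, DMSO; red, SB; circles, replicate 1; triangles, replicate 2); the dashed line marks 1 FPKM. IGFBP6 and IGFBP7 are the tested genes whose red points lie well below the blue ones, and IGF1 and IGFBP1 lie under the line in every library.

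Depth bears on how far the low members can be read. The values of single-exon genes step by what 1 fragment is worth, from which depths of about 19500000 to 26100000 fragments were recovered, the lowest in SB replicate 1 and the highest in SB replicate 2, with 96.1% to 96.8% of low values within 0.04 of a whole step, where even spacing would give 8%. Each member's FPKM, read against the length of its principal transcript, then gives an approximate number of fragments, and the errors stated from it cover counting only. Cell type markers were also read, since the study describes collecting CD31+ cells. The 10 endothelial markers summed to 1532 to 1812 FPKM in the 4 libraries. Of these 10, 0 passed limma's adjustment and 0 reached an unadjusted p under 0.05, beside 9.96% of all tested genes. With 2 libraries in each group, this does not show that they were unchanged. Blood markers other than PTPRC, which encodes CD45 and was at most 0.202 FPKM, were present in both groups. Over all 14909 genes tested, 20 passed an adjusted p of 0.05 (limma, Benjamini-Hochberg), 4 higher and 16 lower with SB, which is a background of 0.134%.

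Among the ligands, IGF2 was present in all libraries and IGF1 was near the limit of detection. IGF2 (chr11:2129112-2141238) was at 341.2 and 255.7 FPKM with DMSO and at 356.1 and 248.7 FPKM with SB. The groups overlapped, and in each group the library numbered 1 was higher, by 1.33-fold with DMSO and 1.43-fold with SB. The difference between groups was 0.01 on the log2(FPKM + 1) scale (SE 0.26, 95% interval -0.66 to 0.68, adjusted p = 0.998 by limma), and its sign turned under other scalings, so no direction is given.

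The IGF2 locus holds other transcripts whose reads may be divided with it. AC132217.1, a transcript inside IGF2 on the same strand that shares 373 exonic bases with it, was at 7.98 and 51.6 FPKM with DMSO and at 12.7 and 52.7 FPKM with SB. It was low in the libraries numbered 1, where IGF2 was high. How reads were divided between the 2 genes is not stated, and the part of this in the IGF2 values was not tested. The antisense gene IGF2-AS was between 1.10 and 1.53 FPKM, the read-through gene INS-IGF2 was at most 0.0519 FPKM, and INS, which encodes insulin, was listed at 0 in every library. H19, the non-coding gene of the same imprinted domain, was at most 0.0749 FPKM.

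IGF1 (chr12:102395867-102480645) was at 0.00844 and 0.0377 FPKM with DMSO and at 4.52e-05 and 0.0475 FPKM with SB. These values stand for about 1.44, 6.22, 0.00624 and 8.76 fragments. Most of its exonic length, 6693 of 8122 bases, is shared with HELLPAR on the opposite strand, itself at most 0.0177 FPKM. A difference in IGF1 was not detectable at this depth.

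The signalling receptor IGF1R (chr15:98648971-98964530) was at 14.5 and 10.8 FPKM with DMSO and at 13.2 and 11.2 FPKM with SB. The groups overlapped, and again the libraries numbered 1 were the higher ones. The difference was -0.04 (log2 scale, SE 0.21, 95% interval -0.59 to 0.51, limma adjusted p = 0.986).

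Of the 7 binding proteins, IGFBP6 and IGFBP7 had means 77.6% and 75.5% lower in SB libraries, and the remaining 4 that were tested differed by less, IGFBP4 being 15.4% lower and IGFBP5 1.21-fold higher at the extremes. Neither IGFBP6 nor IGFBP7 passed the adjustment over all genes. IGFBP7 (chr4:57030773-57110385) was at 32.5 and 23.5 FPKM with DMSO and at 7.46 and 6.26 FPKM with SB. Both SB libraries lay below both DMSO libraries, and the gap between the groups was wider than the range within either. On the log2 scale the difference was -1.87 (SE 0.22, 95% interval -2.45 to -1.29, limma adjusted p = 0.0948). The rank of IGFBP7 went from 3113 and 3977 with DMSO to 8522 and 9236 with SB.

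IGFBP7 shares 270 of its 1930 exonic bases with POLR2B, a subunit of RNA polymerase II encoded on the opposite strand. POLR2B was at 32.9 and 42.2 FPKM with DMSO and at 40.2 and 42.6 FPKM with SB, so it did not separate the groups as IGFBP7 did. Whether counting used strand is not stated.

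IGFBP6 (chr12:53097436-53102345) was at 5.89 and 6.69 FPKM with DMSO and at 1.38 and 1.44 FPKM with SB. The groups did not overlap. The difference was -1.60 (log2 scale, SE 0.18, 95% interval -2.07 to -1.12, limma adjusted p = 0.0853). Its values rest on about 127 and 138 fragments with DMSO and 23.8 and 33.2 with SB, with counting errors of 8.87% and 8.52% against 20.5% and 17.4%. The pseudocount of 1 FPKM compresses the difference of so low a gene: the ratio of the mean FPKM was 0.224 for IGFBP6 and 0.245 for IGFBP7. Both are the binding proteins whose coding stretch printed above lacks the full signature, a description of 2 genes made after their values were known.

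IGFBP4 (chr17:40443461-40457731) was lower in both SB libraries than in either DMSO library, by 15.4% of the mean. The difference of -0.24 (log2 scale, SE 0.15) had a 95% interval of -0.63 to 0.15 and a limma adjusted p of 0.742. IGFBP2 (chr2:216632828-216664436) overlapped between groups, with a difference of -0.07 (SE 0.32, 95% interval -0.91 to 0.78, adjusted p = 0.986 by limma). It was the tested member with the widest spread between libraries of 1 group: replicate 1 was 1.65-fold above replicate 2 with DMSO and 1.46-fold with SB.

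IGFBP3 (chr7:45912245-45921874), the main carrier of IGFs in serum, was at 9.10 and 8.96 FPKM with DMSO and at 9.44 and 9.40 FPKM with SB. The SB values were higher without overlap, but the difference was only 0.06 (log2 scale, SE 0.16, 95% interval -0.35 to 0.46, limma adjusted p = 0.967). IGFBP5 (chr2:216672105-216695525) was at 6.35 and 6.82 FPKM with DMSO and at 7.82 and 8.14 FPKM with SB. Its difference was 0.24 (SE 0.16, 95% interval -0.18 to 0.67, limma adjusted p = 0.759). For IGFBP3 and IGFBP5 the intervals exclude a decrease of the size of IGFBP6 or IGFBP7.

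IGFBP1 (chr7:45888357-45893668), typical of liver and decidua, was at 0.0376 and 0.125 FPKM with DMSO and at 0.193 and 0.225 FPKM with SB. The SB values were the higher ones, but they stand for about 5.15 and 8.03 fragments against 1.25 and 3.97. No test was made at this level.

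Of the 8 tested members, 0 passed limma's adjusted threshold, where 0.134% of all tested genes did. An unadjusted p under 0.05 was reached by 2 of 8, IGFBP6 and IGFBP7, beside 9.96% of all tested genes. The same 2 of 8 had a log2 difference of at least 1 in size, beside 3.72%. The SB and DMSO libraries did not overlap for 5 of 8, beside 37.5%. For IGF2, IGF1R and IGFBP2, 3 of 8, both libraries numbered 1 lay above both numbered 2, where 52.6% of all tested genes separated by number in one direction or the other. The median log2 difference was -0.06 over the 8 members and 0.04 over all tested genes. With 2 libraries against 2, the smallest two-sided p of an exact permutation test is 0.333, and that test was therefore not used for single genes.

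**Figure D2:**
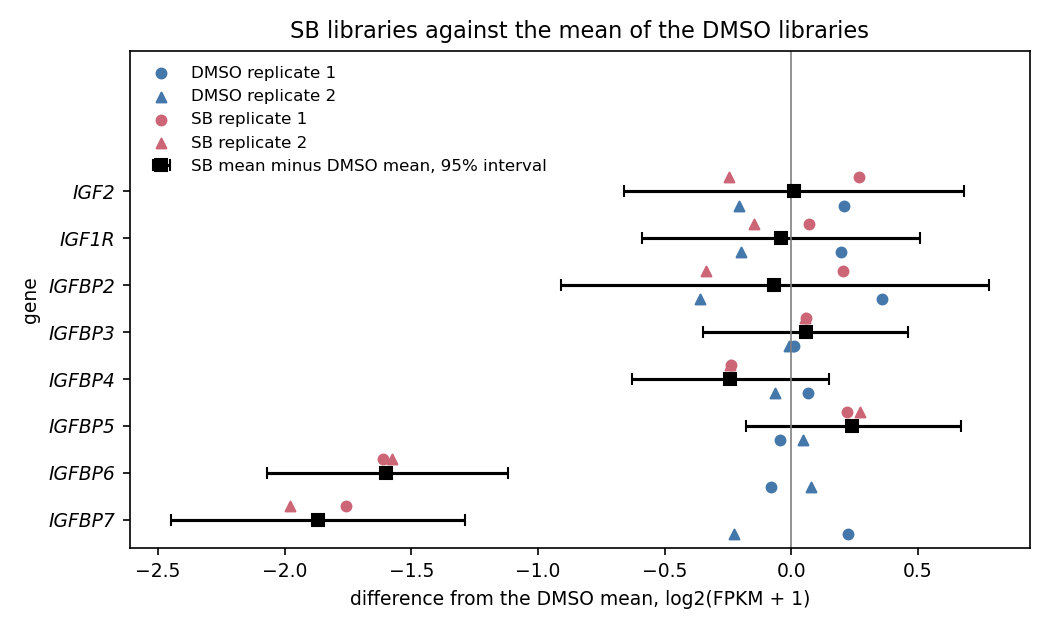
Difference of each library from the mean of the DMSO libraries on the log2(FPKM + 1) scale for the 8 tested members; coloured points are libraries, and black squares with bars are the SB minus DMSO estimate of limma with its 95% interval. The intervals of IGFBP6 and IGFBP7 lie between -2.45 and -1.12, and those of the other 6 members include 0.

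Summed over the 7 binding proteins, FPKM came to 1459 and 1120 with DMSO and to 1225 and 1030 with SB. The groups overlapped in this sum. IGFBP2 and IGFBP4 together supplied 96.3% and 95.9% of it with DMSO and 97.9% and 97.5% with SB. The share of IGFBP7 was 2.23% and 2.1% with DMSO against 0.609% and 0.608% with SB, and that of IGFBP6 was 0.404% and 0.598% against 0.113% and 0.14%. Without IGFBP2 and IGFBP4 the sum was 53.9 and 46.1 FPKM with DMSO and 26.3 and 25.5 FPKM with SB. The groups did not overlap in this smaller sum, which restates the lower values of IGFBP6 and IGFBP7. Its other parts, IGFBP1, IGFBP3 and IGFBP5, were each higher in both SB libraries than in either DMSO library. Such a separation, in either direction, was seen in 37.5% of all tested genes. IGFBP1 rests on at most about 8.03 fragments in a library, and the log2 difference of IGFBP3 was 0.06, or 0.01 on the TPM scale. The sums are of RNA levels per length and say nothing of the amounts of protein.

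**Figure D3:**
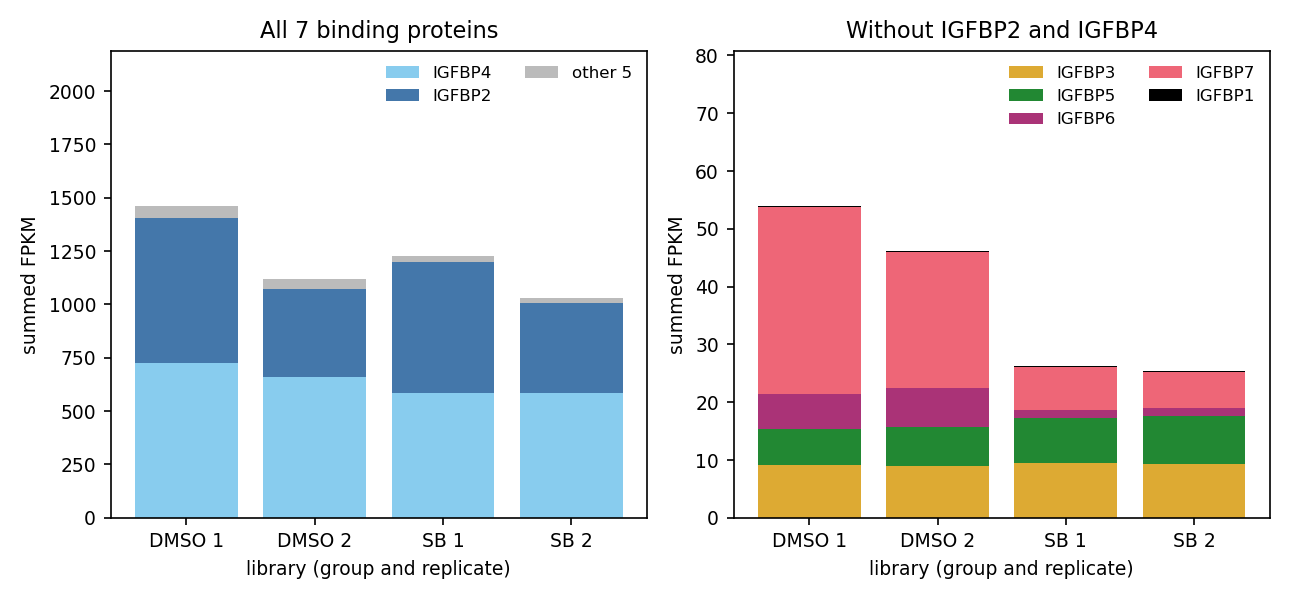
Stacked FPKM of the binding proteins in each library, for all 7 (left) and without IGFBP2 and IGFBP4 (right, on its own scale). On the left the 4 bars run from 1030 to 1459 FPKM and consist almost wholly of IGFBP2 and IGFBP4, while on the right IGFBP7 is the largest segment in both DMSO bars but not in the SB bars.

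In bulk RNA, fewer cells of a type and less RNA per cell cannot be told apart, and marker genes of several cell types moved alongside IGFBP6 and IGFBP7. The 10 markers of liver and endoderm summed to 287.8 and 326.4 FPKM with DMSO and to 29.2 and 32.2 FPKM with SB. At an unadjusted p under 0.05 by limma, 8 of the 8 tested were lower, beside 9.96% of all tested genes in either direction. Of these 8, 4 also passed the adjustment (AFP, TTR, APOA1 and APOA2, limma adjusted p from 0.0201 to 0.0365), beside 0.134% of all tested genes. Each of these calls was lost when any 1 library was left out (adjusted p 0.0523 to 0.171) and without a filter on low values. HNF4A, FOXA2, FGB and SERPINA1 reached the level for testing only with DMSO, their SB means being 0.112, 0.39, 0.97 and 0.564 FPKM. That these 4 of the 8 were lower with SB thus followed from the filter. ALB, which encodes albumin, was at most 0.481 FPKM. The 10 mesenchymal markers summed to 417.7 and 385.1 FPKM with DMSO and to 206.4 and 211.8 FPKM with SB. Of the 8 tested, 0 passed limma's adjustment and 6 were lower at an unadjusted p under 0.05, which 9.96% of all tested genes reached, while DCN and POSTN were at most 0.577 FPKM.

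The 9 TGFβ target genes, which share COL1A1 and TAGLN with the mesenchymal list, summed to 475.4 and 474.9 FPKM with DMSO and to 105.7 and 102.7 FPKM with SB. TGFBI fell past the adjustment, a call that was likewise lost without any 1 library (limma adjusted p 0.137 to 0.182) and without the filter. At an unadjusted p under 0.05, 7 of 9 were lower, beside 9.96% of all tested genes in either direction. The 10 blood markers summed to 324.8 and 307.5 FPKM with DMSO and to 537.1 and 496.4 FPKM with SB. Of the 9 tested, 0 passed limma's adjustment, 7 were higher and 1 lower at an unadjusted p under 0.05, against the same 9.96%. Among the 7, PPBP reached the level for testing only with SB, so its direction followed from the filter. The part of any of these cell types in the IGFBP6 and IGFBP7 values was not tested. The 6 markers of undifferentiated cells summed to 44.7 and 40.1 FPKM with DMSO and to 55.2 and 47.5 FPKM with SB, without overlap. DNMT3B supplied most of this, while POU5F1 was at most 1.60 FPKM, NANOG at most 0.0261 FPKM and SOX2 at most 0.121 FPKM. Of the 4 tested, 0 passed limma's adjustment, and at an unadjusted p under 0.05 POU5F1 was higher and TDGF1 lower with SB. POU5F1 reached the level for testing only with SB and TDGF1 only with DMSO, so both directions followed from the filter.

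The wider IGF pathway was read through 7 lists with 75 genes in the table, 63 of which were tested. Of these 63, 1 gene fell, 0 rose by limma's adjusted p, and 5 were lower and 3 higher at an unadjusted p under 0.05, beside 0.134% and 9.96% of all tested genes by these thresholds. Their median log2 difference was 0.11. The gene that fell was HTRA1, a secreted serine protease that cuts binding proteins. It was at 41.7 and 45.9 FPKM with DMSO and at 5.04 and 3.89 FPKM with SB, with no overlap and a ratio of means of 0.102. Its log2 difference was -3.04 (SE 0.19, limma adjusted p = 0.0353). The size of that difference stayed between -3.20 and -2.89 when any 1 library was left out, but the adjusted p was then 0.101 to 0.17.

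HTRA1 belongs to the list of the acid-labile subunit, binding-protein proteases and stanniocalcins, with 4 of 8 genes tested. PAPPA, the pappalysin that cuts IGFBP4, was at 0.908 and 0.680 FPKM with DMSO and at 0.184 and 0.0997 FPKM with SB, below the level for testing. STC1, a stanniocalcin that inhibits pappalysins, was at 4.56 and 6.22 FPKM with DMSO and at 7.91 and 10.2 FPKM with SB (log2 difference 0.66, limma adjusted p = 0.453). PAPPA and STC1 were singled out after their values were seen. IGFALS, the acid-labile subunit of the serum complex, was at most 0.704 FPKM.

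Proteins that carry the IGFBP domain without being classical binding proteins included the largest differences after HTRA1. Of 10 genes, 5 were tested, 0 passed limma's adjustment and 3 were lower at an unadjusted p under 0.05, beside 0.134% and 9.96% of all tested genes. CTGF, a matricellular protein and a common TGFβ target, was at 4.99 and 6.03 FPKM with DMSO and at 0.594 and 0.543 FPKM with SB (log2 difference -2.05, SE 0.20, limma adjusted p = 0.0753). Its relative CYR61 was at 14.1 and 13.0 FPKM against 5.29 and 3.63 FPKM (-1.43, SE 0.22, limma adjusted p = 0.139). KAZALD1 was at 4.52 and 2.19 FPKM against 1.07 and 0.827 FPKM (-1.11, SE 0.32, limma adjusted p = 0.367), with -0.72 when DMSO replicate 1 was left out. CTGF and KAZALD1 reached the level for testing only with DMSO, so their direction followed from the filter. The remaining tested genes, outside the rule for naming, were not lower. CRIM1 was at 22.6 and 22.7 FPKM against 30.9 and 29.1 FPKM (0.39, SE 0.16, limma adjusted p = 0.52), and ESM1 differed by 0.11 with overlap.

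Among the other receptors, IGF2R, which takes up IGF2 and delivers it to lysosomes, was at 17.6 and 18.7 FPKM with DMSO and at 23.9 and 25.9 FPKM with SB. The SB values were higher without overlap, with a log2 difference of 0.43 (SE 0.16, limma adjusted p = 0.485). The insulin receptor INSR, which also binds IGF2, was at 2.99 and 1.77 FPKM with DMSO and at 1.28 and 1.15 FPKM with SB (-0.59, SE 0.26, limma adjusted p = 0.571). The INSR difference was -0.33 without DMSO replicate 1 and -0.85 without DMSO replicate 2. The 3 proteins that bind the IGF2 mRNA were all present: IGF2BP2 was at 70.3 and 65.0 FPKM against 60.1 and 55.9 FPKM, and the log2 differences of IGF2BP1, IGF2BP2 and IGF2BP3 were -0.11, -0.22 and 0.07, none past the adjustment (limma adjusted p from 0.77 to 0.97).

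Downstream of the receptor, 49 genes were tested in 3 lists and 0 passed limma's adjustment, with 1 higher and 1 lower at an unadjusted p under 0.05, a threshold that 9.96% of all tested genes reached. Among 13 tested adaptors and brakes, GRB14, an inhibitor of the insulin receptor, was at 0.989 and 1.09 FPKM with DMSO and at 0.329 and 0.249 FPKM with SB (-0.66, limma adjusted p = 0.452). GRB14 reached the level for testing only with DMSO, so its direction followed from the filter. IRS2, an adaptor of both receptors, was at 3.62 and 1.46 FPKM with DMSO and at 6.65 and 2.96 FPKM with SB (0.71, SE 0.46, limma adjusted p = 0.753). The groups overlapped, both libraries numbered 1 were the higher ones, and the difference ran from 0.23 without SB replicate 1 to 1.18 without SB replicate 2, with 0.25 without DMSO replicate 2 and 1.16 without DMSO replicate 1. The phosphatase PTPN11 differed by 0.27 (limma adjusted p = 0.762).

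In the lipid kinase branch, where 25 of 25 genes were tested, the catalytic subunit PIK3CB was at 29.6 and 28.7 FPKM with DMSO and at 54.0 and 46.8 FPKM with SB (0.77, SE 0.17, limma adjusted p = 0.245). The regulatory subunit PIK3R1 differed by 0.39 and the transcription factor FOXO3 by 0.34, both with a limma adjusted p of 0.614. In the MAP kinase branch, where 11 of 11 were tested, 0 genes passed limma's adjustment or reached an unadjusted p under 0.05, and the kinase ARAF differed by 0.22 (limma adjusted p = 0.799). Over the 63 pathway genes, 25 did not overlap between SB and DMSO and 34 did not overlap between replicate numbers, beside 37.5% and 52.6% of all tested genes.

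**Figure D4:**
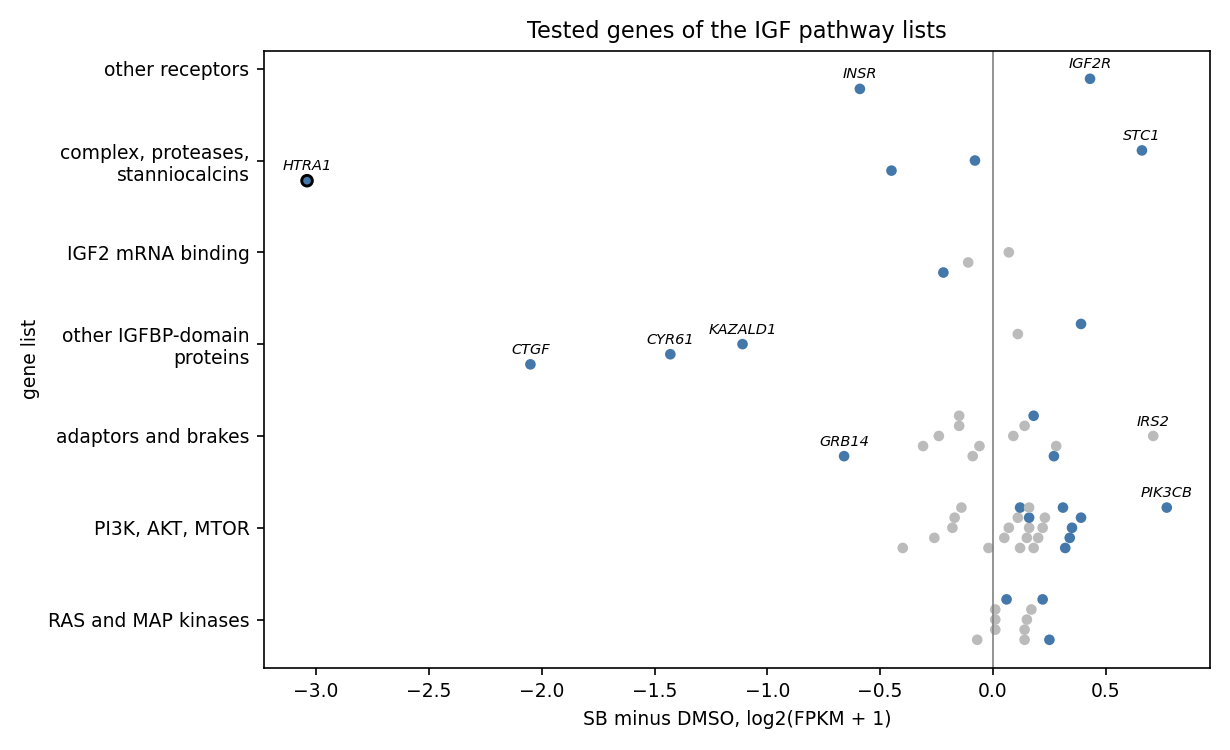
SB minus DMSO difference on the log2(FPKM + 1) scale for the 63 tested genes of the 7 pathway lists, 1 point per gene (blue, libraries of the groups do not overlap; grey, they overlap; black ring, limma adjusted p under 0.05). HTRA1 at -3.04 carries the ring, CTGF, CYR61 and KAZALD1 follow below -1, and the kinase branches lie between -0.40 and 0.77.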

How the data were processed

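Total RNA of 4 libraries (TruSeq RNA kit) was sequenced by a service company. The authors deposited FPKM values, 1 column per library. The submitters' processing notes name BWA, Bowtie, RSEM and the build hg19, without versions or roles, yet the identifiers and loci in the file are those of GRCh38: 95.5% of rows carry an identifier and version of GENCODE 29, and 99.8% of these lie at the same GRCh38 position. Coordinates are therefore on GRCh38, counted from 1. Scaling between libraries is not given in the sources used here.

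Values were transformed to log2(FPKM + 1), which understates differences of low genes. Genes with a mean of at least 1 FPKM in at least 1 group (14909) were tested between groups (limma 3.58.1, R 4.3.3, empirical Bayes with trend, group as the only term, two-sided, Benjamini-Hochberg over all genes, threshold 0.05). A gene whose mean reached 1 FPKM in only 1 group could have its higher mean only in that group. The script was tested on simulated data. The 10 members and all gene lists were chosen with earlier results of these data known. All members were named; from each pathway list, genes past the adjustment were named, or otherwise up to 3 tested genes with the smallest unadjusted p. Exceptions are stated as such, and 2 of the genes so chosen are not reported here. Alternatives covered scaling, filter, pseudocount, trend, a replicate term and leaving out each library. Depth was recovered from the value steps of single-exon genes. Coding stretches were read from GENCODE 29 transcripts.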

Additional observations from a re-analysis of the deposited data

How the results depend on the processing

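Replicate numbers are shared by the groups, but nothing states what they mean; deviations of same-numbered libraries from their group means correlated at 0.528 across 14909 genes, which with 2 pairs does not establish pairing. With a replicate block, 1564 genes passed instead of 20 (820 higher, 744 lower), 2 members instead of 0 (IGFBP6 at an adjusted p of 0.00981 and IGFBP7 at 0.00472, limma) and 9 pathway genes instead of 1 (5 higher, 4 lower). Over all alternatives the log2 difference of IGFBP6 ran from -2.08 to -1.52 (limma adjusted p 0.00981 to 0.377) and that of IGFBP7 from -2.10 to -1.64 (0.00472 to 0.390); without the block neither passed.

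Without a filter 0 genes passed limma's adjustment (2739 at an unadjusted p under 0.05) and 0 pathway genes (11 unadjusted), HTRA1 reaching 0.3. Quantile normalization gave 31 genes (9 higher, 22 lower). Leaving out 1 library at a time gave 0 to 14 genes: 0 without DMSO replicate 1 (1168 unadjusted), 14 without DMSO replicate 2, 10 without SB replicate 1 and 9 without SB replicate 2, and 0 pathway genes each time (5 to 7 unadjusted). The difference of IGF2 became -0.02 with quantile normalization, -0.03 with upper-quartile scaling and -0.04 on the TPM scale, and ran from -0.25 to 0.27 with 1 library left out. Leaving out 1 library also turned the sign for IGF1R (-0.23 to 0.15), IGFBP2 (-0.43 to 0.29), IGF2BP1 (-0.26 to 0.04) and IGF2BP3 (-0.12 to 0.25). Of 282 recomputed log2 differences of 24 named genes, 257 kept their direction and their side of the threshold. This tally does not measure stability. The replicate block, both changes of filter and the fit without trend leave the difference itself unchanged, so no direction could turn there. Of the named genes only HTRA1 passed in the main fit, so for the others keeping their side meant staying above the threshold. The counts of genes that passed moved as well: over 12 alternatives, that over all genes and that over the pathway genes each moved by over 1.5 times in 6, and that over the members in 1. Why these values moved was not tested.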
